A study of Homo sapiens with 7 samples.

Results

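The outermost stretches of the human autosomes were examined in T-47D, an estrogen receptor-positive luminal breast cancer cell line, through 6 lists of peaks from chromatin immunoprecipitation followed by sequencing (ChIP-seq). A peak was taken as near an autosome end when its midpoint lay within 3 Mb of the first or last peak of any list on chromosomes 1 to 22. The first end of chromosomes 13, 14, 15, 21 and 22 was left out. This gave 39 ends, 17 on short arms (the first peaks of a chromosome) and 22 on long arms (the last peaks). They held 19793 of the 281930 autosomal peaks, or 7.02%, on 117.0 Mb, which was 4.4% of the analysed span, and 19793 of the 286998 peaks deposited in all.

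The stated question was how histone modification bears on gene expression in T-47D cells, which were grown in medium with fetal bovine serum, with no treatment named. Each of H3K4me2, H3K27me3, H3K27ac, H3K36me3, H2A.Z and H3K9me3 had 1 library and 1 peak list. An input library was also listed and was not analysed here. The end regions held 3950 H3K4me2 peaks, 5387 H3K27me3 peaks, 2922 H3K27ac peaks and 4117 H3K36me3 peaks. The lists labelled H2A.Z and H3K9me3 held 2572 and 845 peaks there.

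As background, H3K4me2 (dimethylated lysine 4 of histone H3) and H3K27ac (acetylated lysine 27) mark promoters and enhancers. H3K36me3 marks the bodies of transcribed genes, and H3K27me3 is laid down by the Polycomb complex over silenced developmental genes. H3K9me3 marks heterochromatin, and the histone variant H2A.Z sits at regulatory sites such as promoters. Regions that carry both an H3K4 methylation and H3K27me3 are often called bivalent and are known best from stem cells. The outer bands of many human chromosomes are rich in genes.

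The peaks of the lists labelled H2A.Z and H3K9me3 lay where the background for these labels would not place them, also near the ends. Of the 2572 labelled H2A.Z peaks in the ends, 5 touched H3K4me2 and 2 touched H3K27ac, and of the 49391 in the rest 154 and 22 did. Of the 845 labelled H3K9me3 peaks, 41.2% (95% Wilson interval 37.9 to 44.5) touched H3K4me2 and 35.5% (32.3 to 38.8) touched H3K27ac. In the rest 34.9% and 30.0% of labelled H3K9me3 peaks did so. Both lists are therefore called by their label throughout, and what is said of them holds for the list under that label. Placing the ends by the other 4 lists only left the H3K4me2 and H3K27me3 overlaps at 83 peaks.

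With 1 library per mark there is no replicate error and no test across samples. Peaks per Mb carry exact Poisson intervals, shares above 0 carry Wilson intervals and ratios of density carry exact conditional intervals, all at 95%. A ratio of overlap shares carries the Wilson limits of the ends divided by the share in the rest, so the counting error of the rest is left out. For a share of 0 the limit given is 3 counts of the total. The intervals cover counting error with peaks taken as independent, and are too narrow where peaks cluster. The lists give no height, so depth behind a peak is unknown, and densities were compared only within a list.

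H3K27ac, H3K27me3, H3K36me3 and H3K4me2 were denser near the ends than in the rest of the autosomes, and the lists labelled H2A.Z and H3K9me3 were close to their level in the rest. H3K27ac differed most, with 11.0 peaks per Mb in the rest (10.8 to 11.1) and 25 near the ends (24.1 to 25.9), a ratio of 2.28 (2.19 to 2.37). H3K27me3 went from 23.1 to 46.0 peaks per Mb, a ratio of 2.0 (1.94 to 2.05). H3K36me3 went from 18.6 to 35.2, a ratio of 1.89 (1.83 to 1.95), and H3K4me2 from 23.4 to 33.8, a ratio of 1.44 (1.40 to 1.49). Marks of active chromatin and the Polycomb mark were thus all denser near the ends. The list labelled H2A.Z had a ratio of 1.13 (1.09 to 1.18), and without the last end of chromosome 11 this was 0.962 (0.92 to 1.0). For the list labelled H3K9me3 the ratio was 0.947 (0.882 to 1.01), with 7.22 peaks per Mb near the ends and 7.63 in the rest.

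Chromosomes differ in how many peaks they hold, so each end was also set against the rest of its own chromosome. Against the number that the rest of their own chromosome would give, the ends held 1.97 times as many H3K27ac peaks, 1.88 times as many H3K27me3 peaks, 1.72 times as many H3K36me3 peaks and 1.36 times as many H3K4me2 peaks. The labelled H2A.Z list had 1.07 and the labelled H3K9me3 list 0.90 by this measure. The order of the lists stayed as in the pooled comparison. By covered bp, H3K36me3 covered 6.81% of the ends and 3.56% of the rest, and H3K27me3 covered 3.77% and 1.72%.

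**Figure D1:**
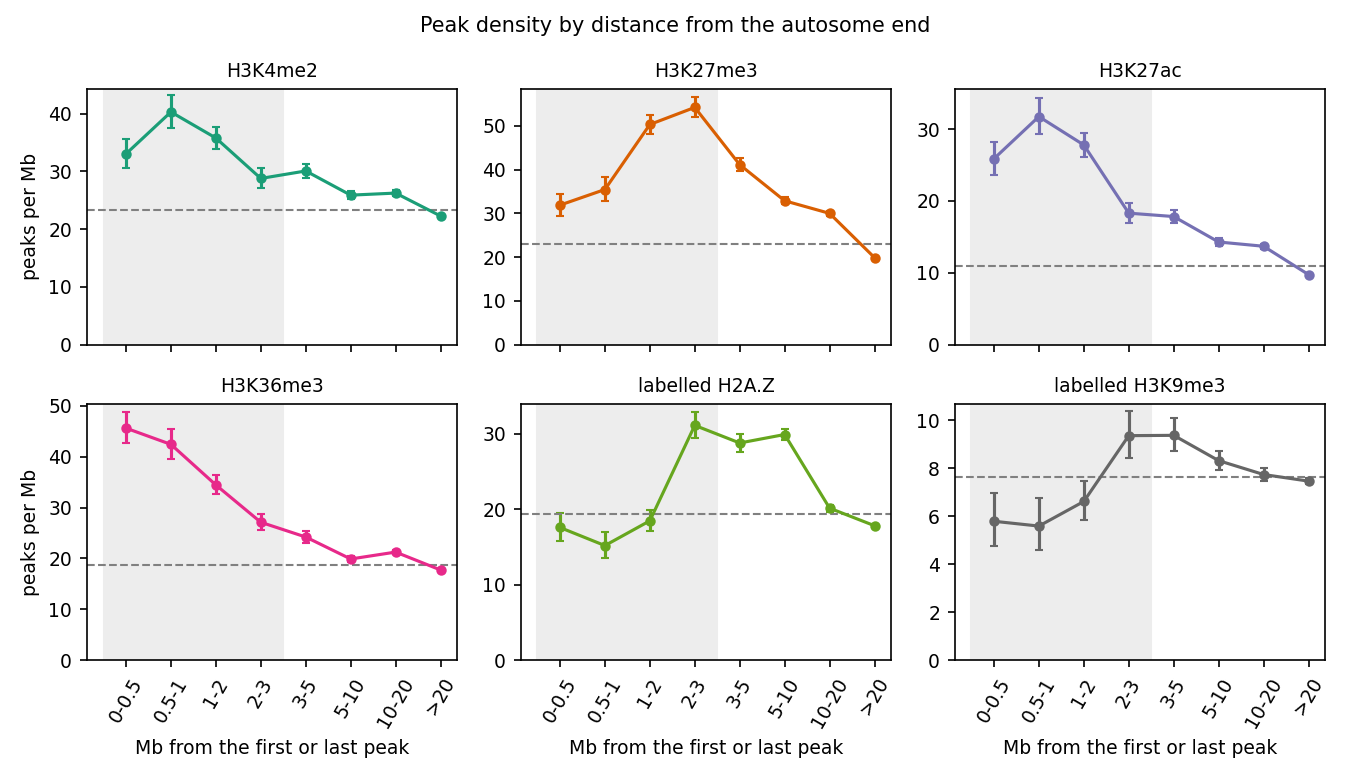
Peaks per Mb (vertical axis, from 0) of each list against distance in Mb from the first or last peak of the chromosome, with exact Poisson intervals. The dashed line is the mean of the rest and the grey band marks the ends; H3K36me3 falls from 45.6 peaks per Mb in the outer 0.5 Mb, whereas H3K27me3 is highest, at 54.2, from 2 to 3 Mb.

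Single ends varied widely. H3K36me3 was above the rest of its own chromosome in 31 of 39 ends, against 45.4% of all 889 stretches of 3 Mb (the 39 ends and 850 windows of the rest). H3K27me3 was above in 28 ends, where 39.6% of all stretches were. H3K4me2 and H3K27ac were each above in 27 ends, where 44.8% and 38.1% of all stretches were. Thus each of these 4 lists was above its own chromosome in a larger share of ends than of stretches at large. The list labelled H2A.Z was above in 18 ends (background 34.6%) and the list labelled H3K9me3 in 12 (background 40.9%). The share of ends for the labelled H3K9me3 list was 30.8%, below its background.

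The densest ends of the active marks largely coincided. For H3K4me2 the 3 densest were the first end of chromosome 16 (hg19, 85209 to 3085893) with 79.3 peaks per Mb, the last end of chromosome 9 (138067489 to 141067739) with 76.0, and the last end of chromosome 17 (78154042 to 81154292) with 70.0. H3K27ac peaked in the last end of chromosome 17 with 81.7 per Mb, the first end of chromosome 16 with 81.7 and the first end of chromosome 19 with 71.0. These 3 ends were also the densest for H3K36me3, the mark of transcribed bodies, with 79.0, 80.3 and 71.0 peaks per Mb. Over the 39 ends H3K27ac ran from 0.667 to 81.7 peaks per Mb with a median of 19. H3K4me2 ran from 2.33 to 79.3 with a median of 31.0, and H3K36me3 from 0 to 80.3 with a median of 28.7.

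At the other extreme stood the first end of chromosome 3 (85602 to 3085926). It held 7 H3K4me2 peaks, 2 H3K27ac peaks and 0 H3K36me3 peaks, with an upper bound of 1.23 H3K36me3 peaks per Mb. The rest of chromosome 3 held 24.7, 9.10 and 18.5 peaks per Mb of these lists. This end was nearly without active marks, yet it was not without peaks, since the list labelled H2A.Z had 47.7 per Mb there against 19 in the rest of the chromosome. The first ends of chromosomes 2 and 8 were next lowest for H3K4me2, with 24 and 28 peaks, and for H3K27ac, with 9 and 6. For H3K36me3 the last ends of chromosomes 4 and 11 were next lowest, with 3 and 8 peaks.

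H3K27me3, the Polycomb mark, was densest in other ends. The first end of chromosome 5 (26343 to 3026592) held 382 H3K27me3 peaks, or 127.3 per Mb (114.9 to 140.8), against 26.1 in the rest of chromosome 5. The last end of chromosome 14 (104287504 to 107287754) held 117.0 per Mb and the last end of chromosome 12 (130825189 to 133825505) held 98.0. By ratio to its own chromosome the first end of chromosome 6 led with 6.71, ahead of both ends of chromosome 2 with 5.46 and 5.52, where H3K27me3 was otherwise sparse at 6.53 per Mb. The ends with the fewest were the first ends of chromosomes 18, 19 and 17, with 3.67, 4.33 and 5.33 per Mb. The long-arm ends had more H3K27me3 than the short-arm ends, 50.8 against 39.9 per Mb, and 19 of 22 long-arm ends and 9 of 17 short-arm ends were above their own chromosome. The long arms include 5 chromosomes whose first end was left out. On the 17 chromosomes with both ends, H3K27me3 stood at 44.1 per Mb on long arms and 39.9 on short arms, and 14 and 9 ends were above. H3K4me2 was level between them, with 33.8 and 33.7 per Mb.

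The labelled H2A.Z list rested on few ends. The last end of chromosome 11 (131939584 to 134939900) held 442 of its 2572 peaks, 147.3 per Mb, and the first end of chromosome 10 (119192 to 3120057) held 275, or 91.6 per Mb. These 2 ends were also the densest for the list labelled H3K9me3, with 150 and 73 peaks, the second being 24.3 per Mb. On chromosome 11 the density was not confined to the end. The windows of the rest nearest to it held 151.3 and 99.1 labelled H2A.Z peaks and 52.7 and 42.3 labelled H3K9me3 peaks per Mb. On chromosome 10 the window next to the end was sparser than the end, with 13 and 11.7 per Mb. The median end held 13.3 labelled H2A.Z peaks per Mb, and the first ends of chromosomes 16, 17 and 18 held 4 peaks each. Without the last end of chromosome 11, the labelled H3K9me3 ratio of ends to rest was 0.799 (0.740 to 0.862).

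**Figure D2:**
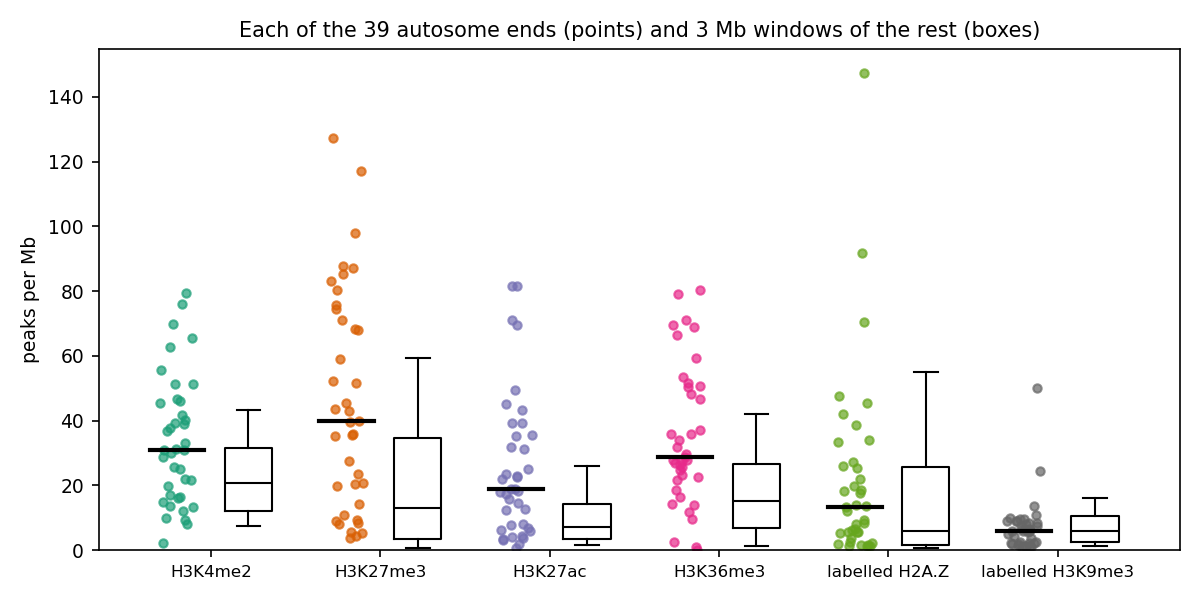
Peaks per Mb (vertical axis, from 0) for each list in the 39 ends (points, with the median as a bar) and in 850 windows of 3 Mb of the rest (boxes from the lower to the upper quartile with the median, whiskers at percentiles 10 and 90). The median end lies above the median window for the first 5 lists, and 13 ends lie above the upper whisker for H3K27me3, for H3K27ac and for H3K36me3.

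Acetylation and H3K27me3 were more often both above their own chromosome near the ends than in stretches at large. Both H3K27ac and H3K27me3 were above their own chromosome in 20 ends, H3K27ac alone in 7, H3K27me3 alone in 8, and neither in 4. Over all 889 stretches both were above in 19%, H3K27ac alone in 19.1%, H3K27me3 alone in 20.6% and neither in 41.3%. Each mark by itself was also above in a larger share of ends, as given before, and the joint count was not tested against that. The 4 were the first ends of chromosomes 3, 9 and 18 and the last end of chromosome 1. The first ends of chromosomes 16, 17 and 19 and the last end of chromosome 17 combined 31.3 to 81.7 H3K27ac peaks per Mb with 4.33 to 8.33 of H3K27me3. The last end of chromosome 20 held much of both, with 49.3 H3K27ac and 71.0 H3K27me3 peaks per Mb.

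**Figure D3:**
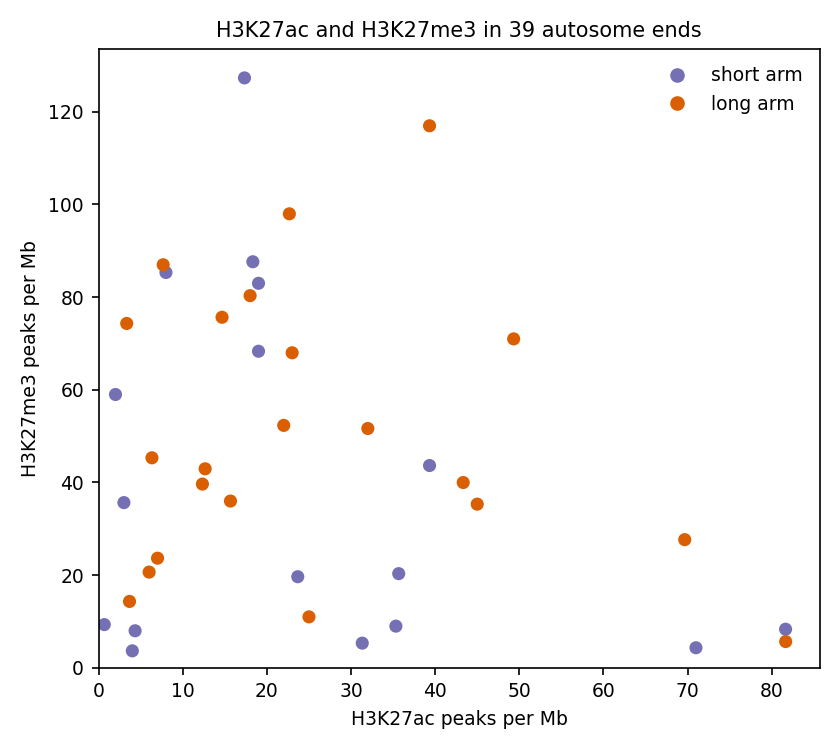
H3K27me3 peaks per Mb (vertical axis) against H3K27ac peaks per Mb (horizontal axis) in each of the 39 ends, short arms and long arms in different colours, both axes from 0. The 3 ends above 70 H3K27ac peaks per Mb all lie under 10 H3K27me3 peaks per Mb, and the 3 highest H3K27me3 ends lie under 40 H3K27ac peaks per Mb. The last end of chromosome 9 has 69.7 H3K27ac and 27.7 H3K27me3 peaks per Mb. Over all 39 ends the Spearman rank correlation of the 2 densities is -0.12.

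Within the 3 Mb the marks were layered by distance. H3K36me3 was densest outermost, with 45.6 peaks per Mb (42.7 to 48.7) in the first 0.5 Mb, and fell to 27.1 (25.5 to 28.8) from 2 to 3 Mb. H3K27ac was highest from 0.5 to 1 Mb with 31.7 (29.3 to 34.3), and fell to 18.3 from 2 to 3 Mb. H3K4me2 had its highest value in the same zone, 40.3 (37.5 to 43.2). All 3 marks of active chromatin were thus sparser from 2 to 3 Mb than from 0.5 to 1 Mb.

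H3K27me3 ran the other way, from 31.9 peaks per Mb (29.4 to 34.5) in the outer 0.5 Mb to 54.2 (51.9 to 56.5) from 2 to 3 Mb, and then to 41.1 from 3 to 5 Mb and 19.9 beyond 20 Mb. In the outer 1 Mb it had 33.7 per Mb against 52.2 in the next 2 Mb, a ratio of 0.644 (0.605 to 0.686), and was lower in the outer part in 28 of 39 ends. H3K36me3 had a ratio of 1.43 (1.34 to 1.52) for the same parts and was higher in the outer part in 28 ends. For H3K27ac the ratio was 1.25 (1.16 to 1.35), with 25 ends higher outside, and for H3K4me2 1.14 (1.06 to 1.21), with 22. The lists labelled H2A.Z and H3K9me3 were also lower in the outer 1 Mb, with ratios of 0.661 (0.603 to 0.723) and 0.712 (0.608 to 0.832), in 23 and 21 ends. With only the outer 1 Mb taken as an end, H3K27me3 was 1.41 times as dense as the rest and above its own chromosome in 17 ends.

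Peak widths near the ends differed from the rest by little at the median, and in the upper part the difference depended on the list. Median H3K36me3 width was 782 bp near the ends and 711 bp in the rest, and H3K4me2 was 641 and 627 bp. H3K27ac went the other way, with 636.5 bp near the ends and 654 bp in the rest. Medians of the other 3 lists were the same in both, at the commonest peak width of the lists. H3K27me3 peaks of at most that width made up 52.0% (50.7 to 53.3) near the ends and 58.3% (57.9 to 58.7) in the rest, and those over 2 kb 5.68% (5.09 to 6.33) and 3.68% (3.53 to 3.83). Over 2 kb there were 6.35% of H3K4me2 peaks near the ends (5.64 to 7.16) and 4.496% in the rest (4.33 to 4.67). Of H3K27ac peaks, 11.1% near the ends (9.97 to 12.2) and 14% in the rest (13.6 to 14.5) were over 2 kb, a smaller share. For H3K36me3 these shares were 24.1% (22.8 to 25.4) and 22.2% (21.8 to 22.6), and over 5 kb 8.79% and 8.62%. Labelled H2A.Z peaks over 2 kb made up 1.40% in both. Labelled H3K9me3 peaks over 2 kb made up 0.592% near the ends (0.253 to 1.38) and 0.820% in the rest (0.702 to 0.957). Per Mb, H3K27ac peaks over 2 kb numbered 2.76 near the ends (2.47 to 3.08) and 1.54 in the rest (1.49 to 1.59), so they too were denser near the ends, by 1.79 times (1.60 to 2.01). For H3K27me3 peaks over 2 kb the ratio was 3.08 (2.73 to 3.48). In 28 of the 38 ends with at least 10 H3K4me2 peaks the median H3K4me2 peak was wider than in the rest of the chromosome, where 43.3% of all 869 stretches with that many peaks were. H3K27ac was wider in 17 ends and narrower in 19, where 55.1% of 673 stretches were wider.

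In the rest, which held far more peaks, the widest peaks reached 75661 bp for H3K36me3 and 10993 bp for H3K27me3. For H3K4me2 and H3K27ac they reached 23860 and 39617 bp there. The widest peaks near the ends are given list by list, and widths are not compared between lists. The widest H3K36me3 peaks spanned 65.5 kb in the first end of chromosome 12 (965161 to 1030660), 57.3 kb in the last end of chromosome 16 (89823102 to 89880375) and 45.4 kb in the last end of chromosome 12 (133290146 to 133335521). They touched 1, 3 and 5 H3K27ac peaks, and no H3K27me3 peak. The widest H3K27me3 peak, 9.48 kb, lay only 0.18 Mb from the last peak of chromosome 9 and touched 2 labelled H2A.Z peaks. Next were H3K27me3 peaks of 8.04 kb in the first end of chromosome 12 (2594327 to 2602369), also with 2 labelled H2A.Z peaks, and of 5.81 kb in the first end of chromosome 6 (1079872 to 1085683), which touched no other list. H3K4me2 reached 12.2 kb in the last end of chromosome 16 (88983834 to 88996038), where no other list had a peak. Its next widest were 8.27 kb in the first end of chromosome 16 (113908 to 122180), on 1 H3K27ac peak, and 8.14 kb in the first end of chromosome 19 (1165203 to 1173337), on 1 H3K36me3 peak.

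For H3K27ac the widest were 11.0 kb in the last end of chromosome 19 (58308915 to 58319945), 10.6 kb in the last end of chromosome 14 (105492775 to 105503358) and 10.5 kb in the first end of chromosome 17 (2247138 to 2257686). All 3 touched H3K4me2, with 4, 1 and 2 peaks, and those on chromosomes 19 and 17 touched H3K36me3. The widest labelled H2A.Z peaks were 6.33 kb in the first end of chromosome 4 and 5.34 and 4.04 kb in the last end of chromosome 5. The first and the last of these touched 1 H3K27me3 peak each. The widest labelled H3K9me3 peaks, 3.77 kb in the last end of chromosome 5 and 3.07 and 2.60 kb in the last end of chromosome 3, touched 1 H3K27ac peak each.

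H3K4me2 peaks that touched H3K27me3 were more frequent near the ends, as a share of H3K4me2 peaks. Of 3950 H3K4me2 peaks near the ends, 83 shared at least 1 bp with H3K27me3 (2.1%, 1.70 to 2.60), against 684 of 59518 in the rest (1.15%, 1.07 to 1.24), a ratio of 1.83. Seen from the other list, 86 of 5387 H3K27me3 peaks near the ends (1.60%, 1.29 to 1.97) and 688 of 58628 in the rest (1.17%, 1.09 to 1.26) touched H3K4me2, a ratio of 1.36. The ends held 10.8% of all 767 such H3K4me2 peaks on 4.4% of the span. Shared sequence was 258.2 bp per Mb near the ends and 97.9 in the rest.

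Set against how much of the ends both lists covered, the overlap was no longer higher. Shared bp were divided by the product of the 2 coverages, which is the overlap that independent placement would give. This value was 0.223 near the ends and 0.267 in the rest, so it was below 1 in both. An end is 3 Mb long and the rest of a chromosome is far longer, and within bins of 500 kb, which give both the same length, the value was 0.339 near the ends and 0.323 in the rest, a ratio of 1.05 (0.835 to 1.30). The interval of that ratio is scaled from the Poisson interval of the number of overlapping H3K4me2 peaks near the ends. It leaves out the error of the rest. H3K27me3 was also nearer to H3K4me2 at large, but H3K27me3 peaks were 2.0 times as dense near the ends. The distances that follow were not corrected for that density. The median H3K4me2 peak lay 102.1 kb from H3K27me3 near the ends and 142.2 kb in the rest, and 10.3% (9.42 to 11.3) and 7.53% (7.32 to 7.75) lay within 5 kb.

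The overlap was not outermost. Of the 83 peaks, 17 lay in the outer 1 Mb and 40 from 1 to 2 Mb. The share of H3K4me2 peaks on H3K27me3 was 1.24% (0.630 to 2.43) in the outer 0.5 Mb, 1.15% (0.604 to 2.16) from 0.5 to 1 Mb, 2.87% (2.11 to 3.88) from 1 to 2 Mb, 2.32% from 2 to 3 Mb and 2.30% (1.77 to 2.99) from 3 to 5 Mb. Beyond 20 Mb it was 1.034% (0.941 to 1.13). With only the outer 1 Mb taken as an end the share was 1.19% near the ends and 1.21% in the rest, which turns the direction, and with 5 Mb it was 2.18% and 1.10%.

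**Figure D4:**
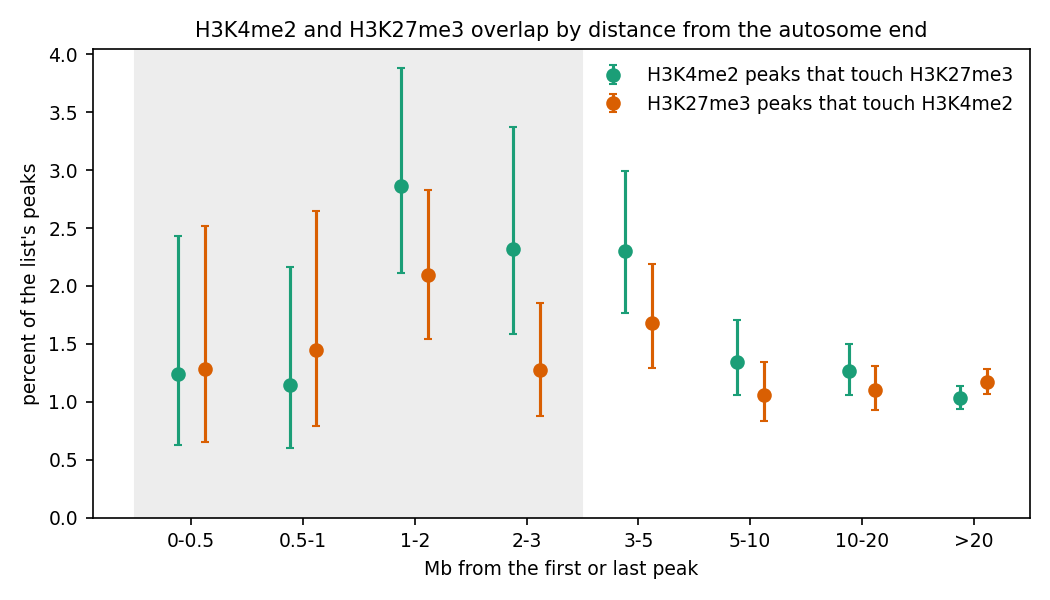
Percent of H3K4me2 peaks that touch H3K27me3, and of H3K27me3 peaks that touch H3K4me2 (vertical axis, from 0), by distance in Mb from the first or last peak, with Wilson intervals. The grey band marks the ends; the H3K4me2 share is 2.87% from 1 to 2 Mb and 1.15% from 0.5 to 1 Mb.

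The number of overlaps differed between ends. The first end of chromosome 5 held 12 H3K4me2 peaks on H3K27me3 among its 99 (12.1%, 7.07 to 20.001), where the rest of that chromosome had 1.19%. The first end of chromosome 10 held 8 of 93, the first end of chromosome 7 held 7 of 154, the last end of chromosome 12 held 7 of 90, and the last end of chromosome 21 held 5 of 121. Over the product of coverages, taken over whole zones, the end on chromosome 5 stood at 0.329 against 0.278 in the rest of its chromosome. Those on chromosomes 10, 7, 12 and 21 stood at 0.462, 0.823, 0.494 and 0.496 against 0.273, 0.402, 0.264 and 0.260. These 5 ends held 39 of the 83 peaks (46.99%). The share was above that of the own chromosome in 23 of 39 ends (59.0%), where 30.7% of all 889 stretches of 3 Mb were, and 13 of 39 ends held none, where 528 of 850 windows of the rest (62.1%) held none. Such peaks per Mb were above the own chromosome in 24 ends, where 32.2% of all stretches were. Over the product of coverages, taken over whole zones, 14 of 39 ends were above the rest of their own chromosome. That count was not made for the other stretches. Without the first end of chromosome 5 the share near the ends was 1.84%, a ratio of 1.60 to the rest (1.27 to 2.02). Seen from H3K27me3, the share without that end was 1.46%, a ratio of 1.24 (0.990 to 1.56), so its interval included equality with the rest. The last end of chromosome 14 had many peaks of both, 138 and 351, and 4 overlaps. Its share of 2.90% (1.13 to 7.22) was near the 2.56% in the rest of that chromosome. Over the product of coverages it stood lower, at 0.0347 against 0.326. The last end of chromosome 22 had 66 and 227 and no overlap, where the rest of that chromosome had a share of 0.276%.

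Several of the longest overlaps lay in these zones. The longest and the third longest near the ends lay in the first end of chromosome 7, at 1626234 to 1627345 with 1112 shared bp and at 1276729 to 1277791 with 1063 shared bp. Between them came 1082 bp in the last end of chromosome 12 (132689017 to 132690098). The last ends of chromosomes 8 (144267933 to 144268757) and 17 (78448658 to 78449374) followed with 825 and 717 bp. In the longest, an H3K4me2 peak of 1112 bp lay wholly inside an H3K27me3 peak of 2285 bp. In the fifth the order was turned, with an H3K27me3 peak of 717 bp inside an H3K4me2 peak of 2724 bp. None of the 5 touched H3K27ac, H3K36me3 or a labelled H2A.Z or H3K9me3 peak, and they lay 1.14 to 2.71 Mb from the end. This was common, since of all 86 overlaps near the ends 0 touched H3K27ac and 0 touched H3K36me3. A labelled H2A.Z peak was touched by 6 of the 86 and a labelled H3K9me3 peak by 3. Of the 10 longest overlaps on the autosomes 4 were near the ends, and of the 50 longest 8, where the ends held 11.0% of all overlaps. Median length was 383 bp near the ends and 392 bp in the rest, so typical overlaps were of like length.

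Overlaps with H3K27me3 were more frequent among short H3K4me2 peaks and, counted separately, among those without H3K27ac. Among H3K4me2 peaks of at most the commonest width, 2.71% near the ends (2.03 to 3.61) and 1.41% in the rest (1.28 to 1.55) touched H3K27me3. From there to 1 kb the shares were 2.25% (1.57 to 3.21) and 1.06% (0.928 to 1.22), and from 1 to 2 kb 0.931% (0.452 to 1.91) and 0.689% (0.534 to 0.887). H3K4me2 peaks without H3K27ac touched H3K27me3 in 83 of 2632 cases near the ends (3.15%, 2.55 to 3.89) and in 670 of 44606 in the rest (1.5%, 1.39 to 1.62). With H3K27ac it was 0 of 1318 near the ends, which allows a share of up to 0.228% (3 counts), and 14 of 14912 in the rest (0.0939%), so a difference there was not detectable at this number. Of the 86 overlaps near the ends, 3 also touched a labelled H3K9me3 peak (3.49%, 1.19 to 9.76), against 13.1% (10.8 to 15.9) in the rest. The list labelled H2A.Z touched 6 (6.98%, 3.24 to 14.4) and 9.09% (7.17 to 11.5).

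H3K27me3 shared no sequence with acetylation or with H3K36me3 near the ends. Of 5387 H3K27me3 peaks near the ends, 0 touched H3K27ac and 0 touched H3K36me3, and each count of 0 allows a share of up to 0.0557% (3 counts). In the rest 11 and 4 of 58628 did, or 0.0188% and 0.00682%, so no difference was detectable at this number. H3K27me3 instead met the list labelled H2A.Z, in 11.4% of its peaks near the ends (10.6 to 12.3) and 11.9% in the rest (11.6 to 12.1). From the other side, 24.9% of labelled H2A.Z peaks near the ends (23.3 to 26.6) touched H3K27me3, and 14.3% (14 to 14.6) in the rest. Over the product of coverages in bins of 500 kb this pair stood at 2.03 near the ends and 2.14 in the rest. The most came from the first end of chromosome 10, with 73 of its 275 labelled H2A.Z peaks, and the last end of chromosome 12, with 66 of 211. H3K27me3 touched the list labelled H3K9me3 in 0.520% of its peaks near the ends (0.360 to 0.750) and in 1.19% (1.11 to 1.28) in the rest. Without the first end of chromosome 10 the share near the ends was 0.273%.

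Among the active marks, H3K4me2 peaks carried H3K27ac more often near the ends, and H3K27ac peaks carried H3K4me2 less often. The share of H3K4me2 peaks with H3K27ac was 33.4% (31.9 to 34.9) near the ends and 25.1% (24.7 to 25.4) in the rest, whereas the share of H3K27ac peaks with H3K4me2 was 43.0% (41.2 to 44.8) and 49.5% (49.0 to 50.1). Over the product of coverages they stood at 6.90 near the ends and 14.9 in the rest over whole zones, and at 5.51 and 7.32 in bins of 500 kb. H3K27ac peaks on H3K36me3 made up 18.8% (17.4 to 20.3) near the ends and 12.4% (12 to 12.8) in the rest. That pair's value was 1.004 near the ends against 1.36 in the rest with the product over whole zones, and 0.801 against 0.654 within bins of 500 kb, so its direction depends on the length over which the product is taken. H3K4me2 touched H3K36me3 in 6.15% of its peaks near the ends (5.44 to 6.94) and 3.96% (3.81 to 4.12) in the rest. Over the product of coverages the order was turned, with 0.342 near the ends and 0.567 in the rest over whole zones, and 0.295 and 0.346 in bins of 500 kb. The first end of chromosome 16 and the last end of chromosome 17 each held 66 of the 550 H3K27ac peaks on H3K36me3.

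The list labelled H3K9me3 met H3K27ac in a smaller part of the H3K27ac peaks, 9.96% near the ends (8.93 to 11.1) and 20.4% (19.9 to 20.9) in the rest. From its own side the share was 35.5% near the ends and 30.0% (29.3 to 30.6) in the rest. Within bins of 500 kb this pair stood at 10.8 and 14.3. The list labelled H2A.Z touched H3K36me3 with 47 of 2572 peaks near the ends (1.83%, 1.38 to 2.42) and 222 of 49391 in the rest (0.449%, 0.394 to 0.512). This pair stood at 0.610 near the ends and 0.278 in the rest within bins of 500 kb, and over whole zones at 0.336 and 0.108. The last end of chromosome 19 held 15 of the 47, and the others lay in 9 further ends. Without that end the whole-zone value near the ends was 0.229. The lists known by label met each other in 2.92% of labelled H2A.Z peaks near the ends (2.33 to 3.64) and 2.91% in the rest, and without the last end of chromosome 11 in 0.798% near the ends.

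**Figure D5:**
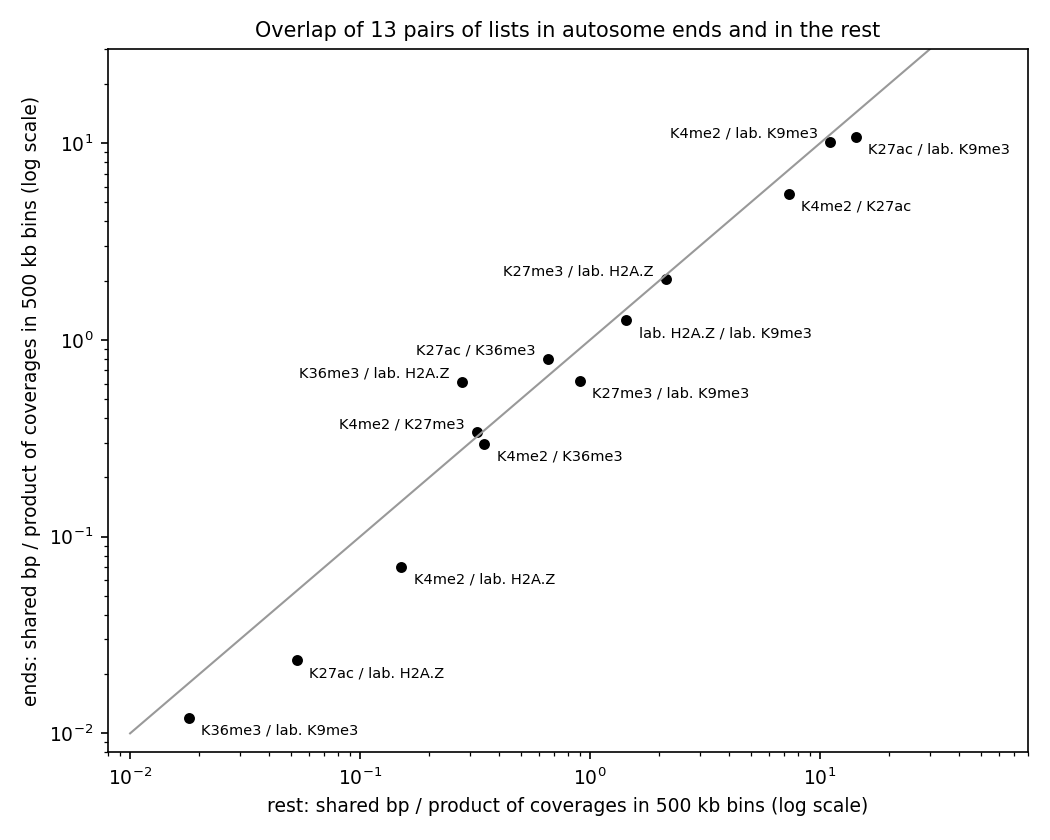
Shared bp over the product of coverages within bins of 500 kb, near the ends (vertical axis) against the rest (horizontal axis), for 13 pairs of lists on log axes, with the line of equality; "lab." marks the lists known by label only. H3K27me3 has no shared bp with H3K27ac or H3K36me3 near the ends and these 2 pairs are not drawn; H3K4me2 with H3K27me3 lies at 0.339 against 0.323, and H3K36me3 with the labelled H2A.Z list lies farthest above the line, at 0.610 against 0.278.

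Merging all peaks that overlapped gave 16268 regions near the ends and 221100 in the rest. Regions of H3K27me3 alone were the largest class near the ends, 28.6% (27.9 to 29.3) against 22.8% in the rest, and H3K36me3 alone followed with 21.1% (20.5 to 21.7) and 19.2%. H3K4me2 alone made up 14% and 17.7%, and the labelled H2A.Z list alone 11.1% and 18.4%. H3K27ac alone made up 7.07% (6.69 to 7.47) and 4.45%. Regions with H3K4me2 and H3K27ac made up 5.19% and 3.74%, those with H3K27ac and H3K36me3 1.96% and 0.755%, and those with H3K4me2 and H3K27me3 0.455% (0.363 to 0.571) and 0.242%. As shares of regions, the shift near the ends was thus toward H3K27me3, H3K27ac and H3K36me3. It was away from H3K4me2 alone and from the 2 lists known by label, with labelled H3K9me3 alone at 1.78% and 3.78%. Per Mb, however, regions of H3K4me2 alone were denser near the ends, at 19.4 against 15.4 in the rest. Labelled H2A.Z alone was at 15.5 and 16.0 per Mb, and labelled H3K9me3 alone at 2.48 and 3.28. Regions of 2 lists made up 13.9% (13.4 to 14.5) near the ends and 11.1% (11.0 to 11.3) in the rest.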

How the data were processed

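ChIP-seq of 6 marks in T-47D was deposited as 1 peak list per library, with chromosome, start, end and name. The submitters' processing notes name the tools Bowtie2 (version 2.1.0) and HOMER (version 4.2) with the builds hg19 and GRCh37. Settings of the peak calling, use of the input and read depth: not given in the sources used here.

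Coordinates are hg19, 1-based. The 3 Mb were measured from the midpoint of the first or last peak. Spans of 1 Mb or more without any peak (38, 132.9 Mb) were taken out of lengths, and none touched an end. Overlap meant at least 1 shared bp. Windows of 3 Mb of the rest needed 1.5 Mb analysed. No test was made. Named regions are the 3 widest peaks per list, the 5 longest H3K4me2 with H3K27me3 overlaps, and the ends with the most and fewest peaks; other ends, such as the last ends of chromosomes 14, 20 and 22, were chosen after their values were seen. Members, lists and alternatives were chosen with earlier results of these data known, and bins of 500 kb, own-chromosome ratios and ends placed by 4 lists were added after seeing the data. No correction for copy number was made. No sequence or gene is given, since an hg19 genome or annotation was not used here. The measures were tested on simulated data. Computation used Python 3.11.15, numpy 2.4.6, pandas 2.3.3, scipy 1.17.1 and matplotlib 3.10.9.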

Additional observations from a re-analysis of the deposited data

Results flagged for a closer look

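Data outside the 39 ends were set beside the rest of the same chromosomes, and a density was singled out where its Poisson interval lay above that rest, a criterion set after seeing the data. Both ends of chromosome X held 19.8 H3K4me2 peaks per Mb (16.4 to 23.7) against 9.10 in the rest of X. They held 12 H3K27me3 peaks per Mb (9.39 to 15.1) against 3.78, 13.5 H3K27ac peaks per Mb (10.7 to 16.8) against 5.65, and 23.7 H3K36me3 peaks per Mb (19.9 to 27.9) against 8.80. None of the 119 H3K4me2 peaks there touched H3K27me3, which allows up to 3 counts of the 119, so a share as low as that of the autosomes was not detectable. The first ends of chromosomes 13, 14, 15, 21 and 22, which the rule leaves out, held 23.7 H3K36me3 peaks per Mb (21.2 to 26.4) against 21.2 in the rest of these chromosomes, and H3K27me3 was at 10.2 there against 28.9. Of the 228 H3K4me2 peaks in these first ends, 3 touched H3K27me3.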

How the results depend on the processing

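No paired analysis was possible because each mark has 1 library. The ratios of density near the ends to the rest kept their direction for H3K4me2, H3K27me3, H3K27ac and H3K36me3 under every alternative run, and moved in size. With ends of 1 Mb they were 1.55, 1.41, 2.55 and 2.32, H3K27me3 was above its own chromosome in 17 ends, and the labelled H2A.Z and H3K9me3 lists were at 0.836 (reversed) and 0.745. With 5 Mb, H3K4me2, H3K27ac, H3K36me3 and the lists labelled H2A.Z and H3K9me3 were at 1.39, 2.06, 1.67, 1.29 and 1.07. With no peak-free span taken out, H3K4me2, H3K27me3, H3K27ac, H3K36me3 and labelled H2A.Z were at 1.52, 2.1, 2.40, 1.99 and 1.19, and against each end's own chromosome at 1.36, 1.88, 1.97, 1.72 and 1.07. Peaks wider than the commonest width gave 1.62, 2.30, 2.18, 2.02, 1.23 and, for labelled H3K9me3, 1.029. Without the end that held the most peaks of the list the 6 ratios were 1.39, 1.90, 2.14, 1.83, 0.962 (reversed) and 0.799. The difference in median width (ends minus rest) for H3K4me2, H3K27me3, H3K27ac and H3K36me3 was 26.5, 137, -85 and 146 bp with peaks merged within 1 kb, and 55.5, 37, -88 and 12 bp among peaks wider than the commonest width, where labelled H2A.Z and H3K9me3 were at 23 and -10 bp. With ends of 1 Mb it was 22 bp for H3K4me2 and 109 bp for H3K36me3. The H3K4me2 share with H3K27me3, 1.83 times the rest, reversed to 0.983 with ends of 1 Mb. In its other 8 alternatives it stayed within its interval, as the H3K27me3 share with H3K4me2 did in all 9. In some of these, the interval of the H3K27me3 share reached below equality with the rest. This share was 1.14 times the rest (0.721 to 1.79) with ends of 1 Mb and 1.24 times (0.990 to 1.56) without the first end of chromosome 5. Among wider peaks it was 1.48 times (0.987 to 2.21). Where shared sequence had to fill 50% of the narrower peak it was 1.23 times (0.941 to 1.61). Its remaining intervals stayed above equality. The product of coverages within bins of 500 kb moved H3K4me2 with H3K27me3 from 0.835 to 1.05 and reversed H3K27ac with H3K36me3 to 1.22. Labelled H2A.Z with labelled H3K9me3 reversed to 1.26 among peaks wider than the commonest width. For the other pairs of lists, 225 values stayed within the interval of the reported one, which is wide for pairs with few overlaps, 72 moved beyond it and 2, given above, reversed. The cause of these changes was not tested beyond what each construction shows. The unknown read depth limits all lists, and signal under the authors' threshold does not show in them.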
